A study of Canis lupus familiaris with 12 samples.

Results

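The genes described here are those of DNA replication and S phase, the part of the cell cycle in which the genome is copied. They were chosen by name from a list of 48, covering the replicative helicase and its loaders, the polymerases, the sliding clamp, the enzymes that supply nucleotides and the factors that guard the fork. A row of that name was found for 46 of the 48 among the 29822 genes of each table. PRIM1 and POLD2 were not analysed here. Of the 46 genes, 45 had enough reads to be tested, among 13358 genes tested in all.

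The series measured polyadenylated RNA of canine peripheral blood mononuclear cells (PBMCs, the lymphocytes and monocytes of blood), taken on a density gradient from healthy, specific pathogen-free male beagles kept as blood donors, with no sort stated. Cells were cultured for 24 h with concanavalin A (ConA), a T cell mitogen from the jack bean, at 0.5 µg/ml together with 5-aminolevulinic acid (ALA, the precursor of heme) at 1.0 mM, or with ConA alone, with ALA alone, or with neither. All 4 groups shared one medium with serum, and each holds 3 libraries numbered 1, 2 and 3, in which order values are given below. The labels do not say that the numbers are separate dogs, so the p-values rest on differences between libraries of unknown origin, which may be technical only.

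Eukaryotic cells license each origin of replication in G1, when the origin recognition complex, CDC6 and CDT1 load the MCM helicase onto DNA. In S phase CDC45 and the GINS complex join MCM to form the active helicase, polymerases alpha, delta and epsilon copy the strands behind it, and PCNA, a ring loaded by replication factor C, holds the polymerases on DNA. Resting blood lymphocytes are out of cycle and carry little of this machinery; mitogens such as ConA drive T cells to rebuild it before their first division.

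Each library held 13390692 to 21517099 exon reads, of which the 46 genes took 0.199 to 0.347% with ConA and ALA, 0.265 to 0.477% with ConA, 0.116 to 0.129% with ALA and 0.120 to 0.134% in untreated cells. Number 1 stood apart in every group. Mitochondrially encoded genes took 3.59 to 4.82% of its exon reads against 11.85 to 23.35% in numbers 2 and 3, and reads across exon junctions made up 52.4 to 54.2% against 36.1 to 43.4%. T cell and monocyte markers were present: CD3E, a CD3 chain of the T cell receptor complex, lay at 281 to 564 CPM (reads scaled to library size by the TMM method) over the 12 libraries and the monocyte enzyme LYZ at 2.76 to 192 CPM. In RNA from mixed cells, fewer cells of a type and less RNA per cell cannot be told apart.

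The replication genes rose together with ConA. Of 45 tested, 35 rose and 0 fell in ConA cultures against untreated ones (quasi-likelihood test of edgeR, p adjusted over all genes by Benjamini-Hochberg, under 0.05), while 9.93% of all genes tested rose and 8.57% fell. None of the 45 was lower at an unadjusted p under 0.05 either (0 genes), nor called lower by DESeq2 or limma-voom. A gene is called risen or fallen below where it passed that test. The median log2 fold change of the 45 was 1.70, against -0.05 over all genes tested, and 44 of 45 lay above 0, against 47.6% of all. ConA exceeded the untreated library of the same number in 3 of 3 numbers for 40 of the 45 genes, against 30.6% of all, and 37 had 3 ConA libraries above the 3 untreated ones, against 17.3% of all. Beside this rise, some markers of blood cell types fell: 4 of 6 tested neutrophil genes, 2 of 7 monocyte genes, 2 of 7 B cell genes and 2 of 6 NK cell genes. Of 9 T cell genes 2 fell and 1 rose, and 0 of 6 red cell genes and 0 of 2 platelet genes were called. The part of these markers in the result was not tested. The count of 35 was 27 to 35 with any 1 library left out, and with a whole number left out it was 29 without number 1, 4 without number 2 and 24 without number 3. With the number also fitted as a block, a choice made after seeing the data, it was 33, 39 and 36 without number 1, 2 and 3.

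**Figure D1:**
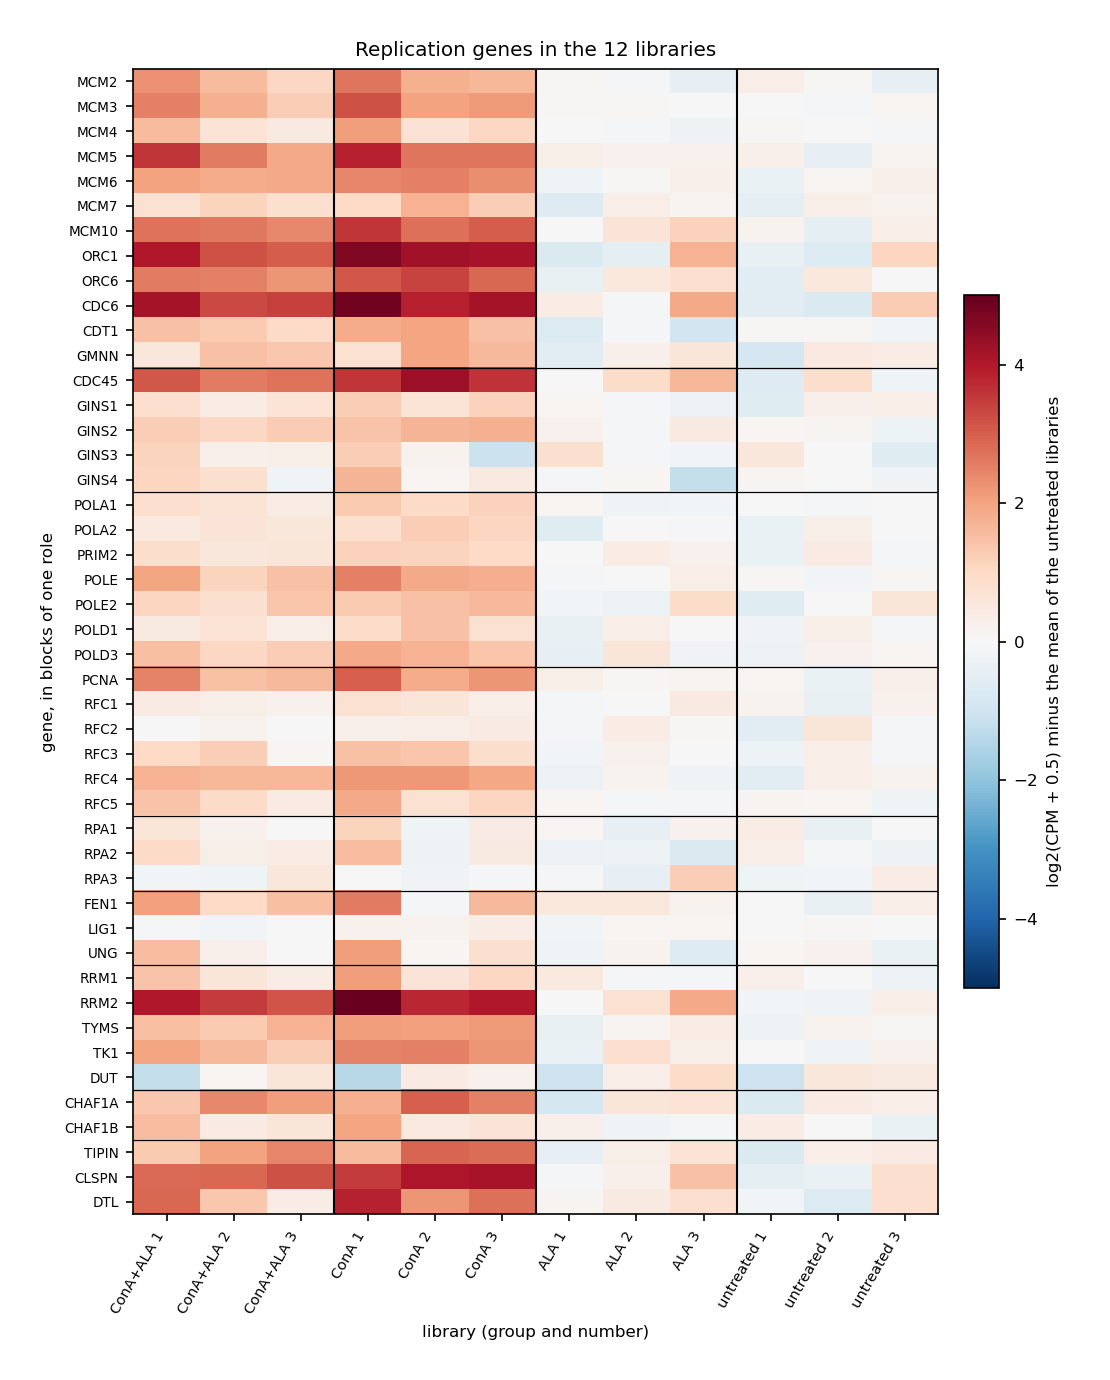
Level of each of the 46 genes in the 12 libraries, as log2(CPM + 0.5) minus the mean of the 3 untreated libraries, with libraries in columns and genes in rows, in blocks of one role. The ConA columns are reddest, those of ConA with ALA next, and most ALA and untreated cells lie near 0, while LIG1 and RFC2 stay pale throughout and DUT is blue in number 1 of every group.

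The helicase and the factors that load it rose as a whole, 12 of 12, with a median log2 fold change of 2.49. MCM6, a subunit of the MCM2 to MCM7 ring (ENSCAFG00000005143, CanFam3.1 chromosome 19, 38627183 to 38660280, minus strand, 17 exons), had 446, 479 and 417 CPM in ConA cultures, against 64.6, 87.7 and 99 CPM in untreated ones. The groups did not overlap, and the change was 5.34-fold, with the smallest p of all 45 genes (log2 fold change 2.42 ± 0.22, adjusted p = 0.00014). MCM2, another subunit of the ring, had 143, 75.2 and 68.9 CPM in ConA cultures, against 27.7, 22.4 and 16.2 CPM in untreated ones (2.11 ± 0.37, adjusted p = 0.0027). The other 4 subunits rose by 3.22 ± 0.46 for MCM5, 2.57 ± 0.36 for MCM3, 1.42 ± 0.36 for MCM4 and 1.32 ± 0.30 for MCM7 on the log2 scale (SE). MCM4 missed the threshold without ConA 1 or without any 1 of the untreated libraries (adjusted p = 0.052 to 0.066).

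ORC1 and CDC6, of the loaders, had larger fitted changes than any subunit of the ring, though genes were not tested against each other. ORC1, the ATPase subunit of the origin recognition complex, stood at 44.5, 33.4 and 31.6 CPM with ConA, against 0.9, 0.647 and 3.32 CPM in untreated cells, a log2 fold change of 4.49 ± 0.83 (adjusted p = 0.0038). ORC6, a smaller subunit of that complex, rose by 3.19 ± 0.38. CDC6, which joins the origin recognition complex to recruit MCM, had 40.4, 20.9 and 25.9 CPM in ConA cultures, against 0.495, 0.388 and 3.02 CPM in untreated ones (4.48 ± 0.81, adjusted p = 0.0032). Untreated libraries held as few as 6 reads of CDC6 and 10 of ORC1, so the size of both changes rests on low counts. MCM10, which helps switch the loaded helicase on, rose by 3.35 ± 0.40.

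CDT1, the partner of CDC6 in loading, and GMNN, which encodes geminin, the inhibitor of CDT1, both rose. CDT1 had 83.9, 91.4 and 64.6 CPM in ConA cultures, against 24.3, 24.1 and 21.1 CPM in untreated ones (1.79 ± 0.25, adjusted p = 0.00095). GMNN had 33.4, 78.2 and 61.5 CPM in ConA cultures, against 10.6, 28.1 and 25.2 CPM in untreated ones (1.44 ± 0.44, adjusted p = 0.039). The GMNN groups did not overlap, but its number 1 ConA library lay only a little above the highest untreated one. The GMNN call was lost in 9 of 21 alternatives, 8 of them with 1 library left out, with an adjusted p of up to 0.13 without ConA 2.

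CDC45 and GINS, the partners that turn MCM into the active helicase, moved unevenly, with 3 of 5 risen. CDC45 (chromosome 26, 29707564 to 29739252) had 21.7, 35.1 and 22.5 CPM in ConA cultures, against 0.675, 2.91 and 1.1 CPM in untreated ones (4.10 ± 0.60, adjusted p = 0.0011). GINS1 had 36.9, 25.1 and 34.9 CPM in ConA cultures, against 10.0, 18.9 and 19.9 CPM in untreated ones (0.99 ± 0.28, adjusted p = 0.031), and GINS2 rose by 1.70 ± 0.23. ConA libraries lay above all untreated ones for these 3 genes, but the GINS1 call was lost without ConA 1, ConA 3 or untreated 1 (adjusted p = 0.085 to 0.090).

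The last 2 GINS subunits did not pass. GINS3 had 12, 5.55 and 1.99 CPM in ConA cultures, against 7.33, 4.91 and 3.02 CPM in untreated ones; the groups overlapped, number 1 being the highest in each (0.36 ± 0.58, adjusted p = 0.72). GINS4 had 35.2, 11.1 and 14.4 CPM in ConA cultures, against 11.4, 10.6 and 9.13 CPM in untreated ones (0.97 ± 0.48, adjusted p = 0.19), with ConA 1 far above the other libraries; with the number as a block it passed (adjusted p = 0.044).

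Primase and the polymerases rose in 7 of 7 tested genes, by a log2 fold change of 1.04 to 2.13, a narrower range than that of the helicase loaders. POLA1, the catalytic subunit of polymerase alpha, which starts each new strand (chromosome X, 20227886 to 20537902, 37 exons), had 51, 40.4 and 46.5 CPM in ConA cultures, against 20.8, 19.5 and 20.9 CPM in untreated ones (1.17 ± 0.19, adjusted p = 0.0018). POLE2, the second subunit of polymerase epsilon, had 60.6, 67.7 and 76.7 CPM in ConA cultures, against 15.9, 24.1 and 37.2 CPM in untreated ones (1.41 ± 0.36, adjusted p = 0.018). The POLE2 groups did not overlap, and its call was lost without ConA 3, untreated 1 or untreated 2 (adjusted p = 0.054 to 0.065). POLE, the catalytic subunit of that enzyme, rose by 2.13 ± 0.27, POLD3 by 1.74 ± 0.30, PRIM2, the large subunit of primase, by 1.09 ± 0.22, POLD1, the catalytic subunit of polymerase delta, by 1.08 ± 0.25, and POLA2 by 1.04 ± 0.22.

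The sliding clamp and its loader split. PCNA, the clamp, had 186, 84.1 and 108 CPM in ConA cultures, against 24.5, 18 and 27.8 CPM in untreated ones (2.43 ± 0.34, adjusted p = 0.00093). RFC4, a small subunit of the loader, had 119, 119 and 100.3 CPM in ConA cultures, against 18, 33.2 and 29.2 CPM in untreated ones (2.07 ± 0.23, adjusted p = 0.00031), in groups far apart. RFC5 and RFC3 rose by 1.34 ± 0.32 and 1.27 ± 0.30; the RFC5 call was lost without ConA 1 (adjusted p = 0.053) and that of RFC3 without untreated 1 (adjusted p = 0.054). RFC4 overlaps EIF4A2 on the other strand in the annotation, and whether counting used strand is not given in the sources used here.

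The other loader subunits did not pass. RFC1, the large subunit, had 45.2, 40.6 and 33.5 CPM in ConA cultures, against 29.8, 20.04 and 30.3 CPM in untreated ones (0.57 ± 0.23, adjusted p = 0.1), and passed with the number as a block (adjusted p = 0.021). RFC2 had 69.5, 73.2 and 76.2 CPM in ConA cultures, against 40.4, 89.4 and 53.5 CPM in untreated ones (0.26 ± 0.26, adjusted p = 0.53). The untreated RFC2 libraries spanned the ConA ones, untreated 2 being the highest of the 6.

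RPA, the trimer that coats single-stranded DNA at the fork, gave no call. RPA1 had 64.2, 24.9 and 39.4 CPM in ConA cultures, against 38.4, 22.3 and 29.4 CPM in untreated ones (0.51 ± 0.34, adjusted p = 0.32). RPA2 had 28.6, 7.85 and 13.2 CPM in ConA cultures, against 12.2, 8.92 and 8.03 CPM in untreated ones (0.77 ± 0.41, adjusted p = 0.22). In both genes ConA 1 was the highest of the 6 libraries, while ConA 2 lay within the untreated range of RPA1 and below that of RPA2. RPA3, the smallest subunit, is annotated as 1 exon of 366 bases (chromosome 11, 2893352 to 2893717) with 2 to 19 reads per library and no read across a junction, and was not tested.

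Among the genes that finish the lagging strand or remove uracil, 1 of 3 rose. LIG1, the ligase that seals Okazaki fragments, had 61.6, 59.7 and 68.9 CPM in ConA cultures, against 51.8, 55.2 and 52.6 CPM in untreated ones (0.25 ± 0.16, adjusted p = 0.29): the 3 ConA libraries lay above the 3 untreated ones, but the fitted change was 1.19-fold. UNG, the glycosylase that removes uracil from DNA, had 31.1, 7.45 and 12.2 CPM in ConA cultures, against 7.38, 8.08 and 5.35 CPM in untreated ones (1.29 ± 0.53, adjusted p = 0.12), and passed with the number as a block (adjusted p = 0.035). ConA 2 lay within the untreated range of UNG and ConA 1 far above it. FEN1, which trims the flaps of Okazaki fragments, rose by 1.81 ± 0.55 (adjusted p = 0.039). Only 66.8% of FEN1 exon reads were unique to it, ConA 2 (4.52 CPM) lay below the highest untreated library (6.28 CPM), and the call was lost in 10 of 21 alternatives, among them unique reads (adjusted p = 0.075) and each of ConA 1, ConA 3, untreated 1, untreated 2 and untreated 3 left out (0.064 to 0.18).

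Nucleotide supply rose in 4 of 5 genes. RRM2, the small subunit of ribonucleotide reductase, which makes deoxynucleotides (chromosome 17, 7104961 to 7122939, 14 exons), had 131, 58.4 and 69.3 CPM in ConA cultures, against 3.38, 3.3 and 4.89 CPM in untreated ones, a 22.3-fold change (4.48 ± 0.53, adjusted p = 0.00042). TYMS, which makes thymidylate, had 159, 154 and 162 CPM in ConA cultures, against 31.1, 42.2 and 38.9 CPM in untreated ones (2.08 ± 0.22, adjusted p = 0.00024). TK1, the salvage kinase for thymidine, had 39.7, 41.3 and 33.4 CPM in ConA cultures, against 6.66, 5.88 and 7.91 CPM in untreated ones (2.48 ± 0.32, adjusted p = 0.00064). None of these 3 groups overlapped its untreated counterpart. RRM1, the large subunit of the reductase, rose by 1.39 ± 0.38 (adjusted p = 0.026), and no longer passed when ConA 1 or any 1 untreated library was left out (adjusted p = 0.053 to 0.11).

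DUT, which breaks down dUTP and so keeps uracil out of DNA, was the 1 gene whose log2 fold change lay below 0. It had 42.3, 149 and 132 CPM in ConA cultures, against 55.3, 167 and 156 CPM in untreated ones (-0.23 ± 0.63, adjusted p = 0.85). ConA lay below untreated in 3 of 3 numbers, as in 34.3% of all genes, by 0.38, 0.16 and 0.24 on the log2 scale, while number 1 stood far below numbers 2 and 3 in both groups. With the number as a block the difference was -0.26 ± 0.15 (adjusted p = 0.18).

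CHAF1A and CHAF1B encode the large and middle subunits of the chaperone that deposits histones behind the fork. CHAF1A rose by 2.46 ± 0.48 (adjusted p = 0.0048), with 72.9, 169 and 122.6 CPM in ConA cultures against 12.3, 27.7 and 26.2 CPM in untreated ones. CHAF1B had 24.6, 8.32 and 9.45 CPM in ConA cultures, against 7.61, 5.75 and 4.48 CPM in untreated ones (1.25 ± 0.45, adjusted p = 0.074), and passed with the block (adjusted p = 0.0026) and by DESeq2 (0.035). Its 3 ConA libraries lay above the untreated ones, ConA 2 by a small margin.

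The fork guards and DTL rose in 3 of 3. CLSPN, which encodes claspin, the mediator of the replication checkpoint, rose by 4.11 ± 0.54 (25.1, 37.2 and 39.3 CPM with ConA, 1.17, 1.29 and 3.43 CPM untreated). TIPIN, which holds the fork together with TIMELESS, rose by 2.47 ± 0.45. DTL, the adaptor through which a ubiquitin ligase destroys CDT1 in S phase, had 11.1, 3.17 and 4.97 CPM in ConA cultures, against 0.225, 0 and 0.931 CPM in untreated ones (4.04 ± 1.08, adjusted p = 0.023). With 600 exon reads over all 12 libraries and 0 in untreated 2, DTL was the least precise call, lost without ConA 1, untreated 1 or untreated 2 (adjusted p = 0.053 to 0.083).

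**Figure D2:**
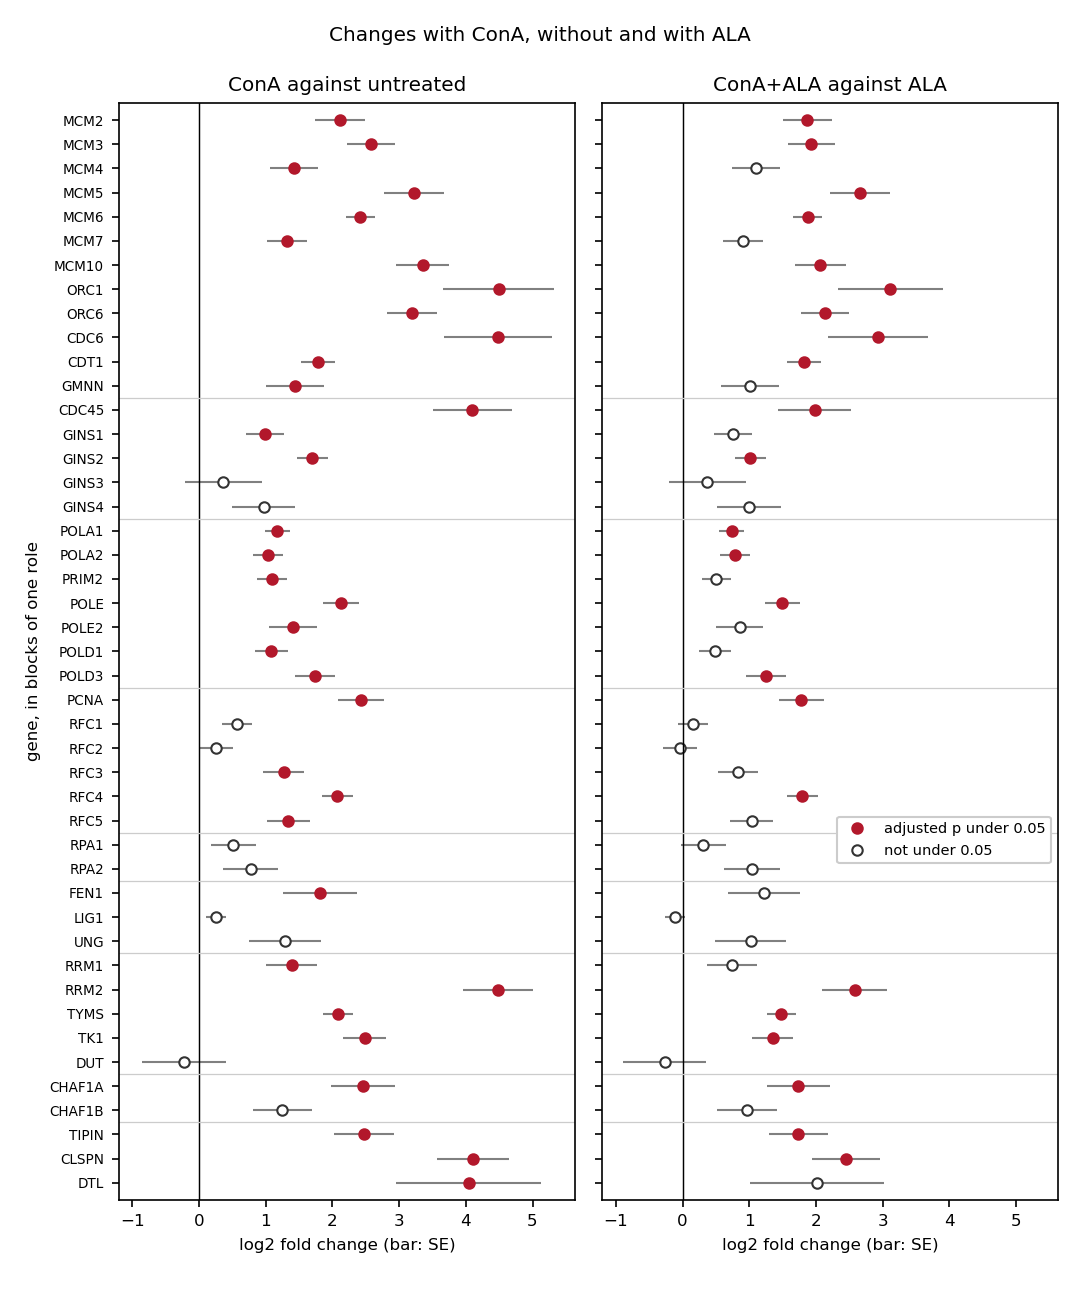
Log2 fold change of each of the 45 tested genes with its SE, for ConA against untreated on the left and ConA with ALA against ALA on the right. Filled points have an adjusted p under 0.05 in edgeR's quasi-likelihood test, 35 genes on the left and 23 on the right, and DUT is the 1 gene on the left below 0.

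Levels per transcript length, in the TPM (reads per transcript length, scaled to a common total) the authors deposited, show how the make-up of the set changed. DUT led in untreated cells at 126 ± 40.6 TPM (SD, n = 3), before MCM7 at 90.0 ± 6.92, RFC2 at 57.3 ± 17.4 and MCM6 at 52.4 ± 3.27. With ConA the order was MCM6 at 220 ± 76.6 TPM, TIPIN at 180 ± 32.8, MCM7 at 169 ± 24.7, PCNA at 162 ± 125 and TYMS at 141 ± 51.0. Each of these 5 lies within an SD of the next in the ConA libraries, so their order is not resolved. Summed over the 46 genes, ConA libraries held 3443, 1635 and 1894 TPM and untreated ones 1046, 986 and 866 TPM, 3.29, 1.66 and 2.19 times as much within the numbers. The mitochondrial share also differed, at 23.35% of exon reads in ConA 2 and 12.75% in untreated 2. Of exon reads outside mitochondrial genes the 46 genes took 0.499, 0.345 and 0.349% with ConA, against 0.1395, 0.153 and 0.137% in untreated cells.

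In some complexes the subunits did not rise in proportion. The TPM ratio of RRM2 to RRM1, the small and large reductase subunits, was 0.990, 1.20 and 1.11 in ConA cultures, against 0.0928, 0.105 and 0.194 in untreated ones. The ratio of RFC4 to RFC2 in the clamp loader was 2.34, 2.22 and 1.80 with ConA, against 0.608, 0.507 and 0.744 in untreated cells. Neither ratio overlapped between the groups. Within the MCM ring, MCM7 stood at 0.994, 3.86 and 2.80 times MCM5 with ConA, against 4.68, 12.5 and 7.78 times in untreated cells, and the highest of the 6 subunits exceeded the lowest 3.70, 7.54 and 7.17 times with ConA, against 5.19, 12.5 and 11.7 times in untreated cells. These ratios follow from the fold changes above and are given as a description.

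**Figure D3:**
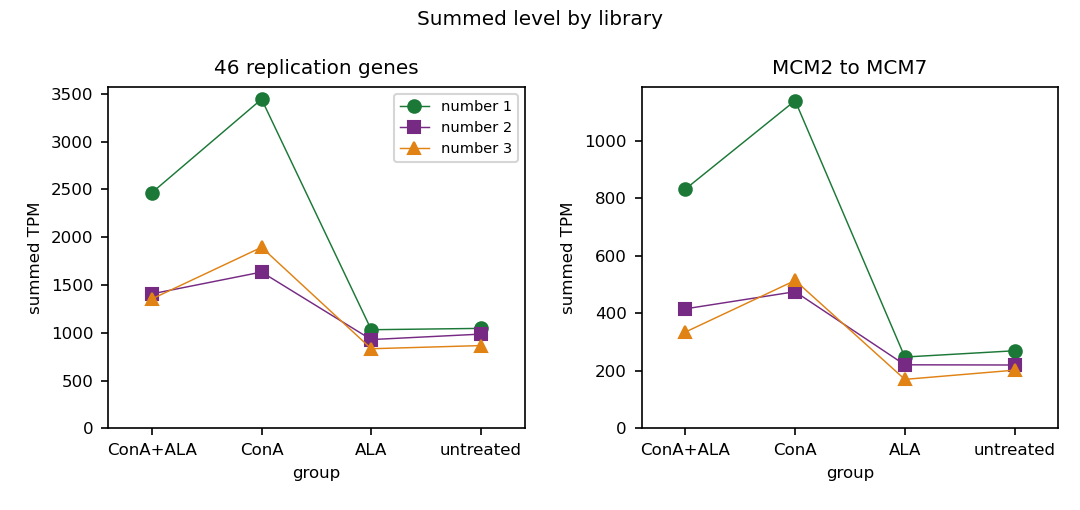
Summed TPM of the 46 genes (left) and of MCM2 to MCM7 (right) in each library, with a line joining libraries of one number across ConA with ALA, ConA, ALA and untreated. ConA is the highest point of every line, and ConA 1, at 3443 TPM for the 46 genes and 1140 TPM for the MCM subunits, stands far above the other ConA libraries.

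Reads within introns come largely from transcripts not yet spliced and were counted separately from exon reads. By intron reads 20 of the 45 genes rose and 0 fell with ConA, against 4.16% risen and 3.14% fallen of 15305 genes tested, with a median log2 fold change of 1.09 against -0.02. With the number as a block the counts were 35 risen and 1 fallen, against 16.5% and 16% of all. Levels in these 2 paragraphs are CPM of intron reads. DTL, sparse in exon reads, had 55.9, 61.7 and 54.4 CPM in ConA cultures, against 1.66, 3.46 and 3.77 CPM in untreated ones (4.26 ± 0.38, adjusted p = 0.00025). MCM3 had 475, 482 and 464 CPM in ConA cultures, against 51.1, 71.4 and 78.2 CPM in untreated ones (2.82 ± 0.23), and RRM2 had 253, 187 and 199 CPM in ConA cultures, against 1.89, 8.75 and 12.1 CPM in untreated ones (4.80 ± 0.58). The groups of these genes lay well apart. DTL overlaps 2 annotated genes on the other strand, INTS7 among them, and introns hold 80.4% of its gene reads. As the use of strand is not given, some of these reads may belong to the overlapping genes. The count of 20 fell to 11 without ConA 1 or without untreated 1 and to 10 without untreated 2.

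For some genes, the exon and intron changes parted. CDC6, whose exon reads rose 22.4-fold, had 109.6, 94.8 and 76.5 CPM in ConA cultures, against 65.8, 100.8 and 70.3 CPM in untreated ones (0.25 ± 0.23, adjusted p = 0.63). GINS2, risen in exons, had 65.6, 54.4 and 60.5 CPM in ConA cultures, against 65.1, 90.8 and 76.8 CPM in untreated ones (-0.37 ± 0.20, adjusted p = 0.33). Introns hold 77.5% of the gene reads of CDC6 and 73.4% of those of GINS2, and the annotated span of CDC6 overlaps TOP2A and RARA. Conversely 4 genes without an exon call rose in intron reads: UNG by 2.40 ± 0.60 (adjusted p = 0.030), CHAF1B by 1.38 ± 0.29 (0.015), RPA2 by 1.22 ± 0.29 (0.024) and RPA1 by 0.86 ± 0.22 (0.034). RPA2 overlaps SMPDL3B and THEMIS2 on the other strand in the annotation. RFC2 was the gene that fell with the block, by 0.43 (adjusted p = 0.037), where its exon reads gave 0.26 ± 0.26 without it.

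**Figure D4:**
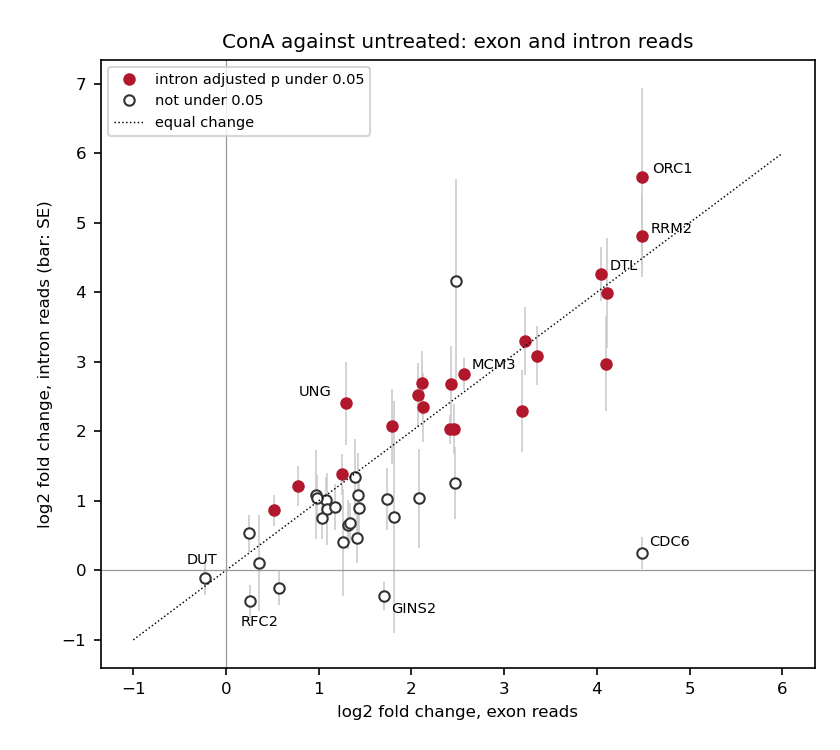
Log2 fold change of intron reads (vertical axis, bar SE) against that of exon reads (horizontal axis) for the 45 tested genes, ConA against untreated, with filled points where the intron change had an adjusted p under 0.05. CDC6 and GINS2 lie farthest below the dotted line of equal change, TIPIN, CDC45, TYMS and FEN1 lie over 1 unit below it, and TK1, ORC1 and UNG lie over 1 unit above it. FEN1 is annotated as 1 exon without an intron, so its few intron reads (0 to 3.02 CPM) give no measure of unspliced FEN1 transcript. TK1 and ORC1 had few or no intron reads in untreated libraries (0 to 0.444 and 0 to 0.794 CPM), so the size of their intron change rests on low counts.

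The wider S phase programme was described by 8 further lists, from which the 46 genes were left out. In the nucleotide supply list 9 of 14 tested genes rose and 0 fell (median log2 fold change 1.23), led by NME1, a nucleoside diphosphate kinase (2.69 ± 0.26), and ATIC, which completes the purine ring (1.78 ± 0.20); with the block 11 rose and 3 fell. Of 16 genes of replication-coupled repair 12 rose and 0 fell (median 1.32), among them FANCD2 of the Fanconi pathway (1.30 ± 0.20). Of 11 helicase loading partners and firing factors 5 rose and 0 fell (median 0.75), led by ORC4 (0.95 ± 0.19) and CDC7, the kinase that fires origins (1.10 ± 0.26); with the block 7 rose and 1 fell. Further fork and Okazaki fragment factors gave 4 of 13 risen and 0 fallen (median 1.05), with RNASEH2B, a subunit of ribonuclease H2, at 1.56 ± 0.30 and RPAIN, which carries RPA into the nucleus, at 1.86 ± 0.38; with the block 8 rose and 1 fell. All 8 lists, those described below included, had a larger share of risen genes than the 9.93% of all genes. With the block each also exceeded the 21.3% of all genes risen, while 21.2% of all fell. No test of a list as a whole was made.

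Chromatin replication genes rose in 5 of 11 (median 0.62), led by HELLS, a chromatin remodeller (2.46 ± 0.24), and HAT1, which acetylates new histones (0.96 ± 0.21). Checkpoint genes gave 4 of 10 risen, HUS1 (1.43 ± 0.26) and CHEK1 (1.61 ± 0.36) first, and 1 fallen, the kinase ATM (-1.05 ± 0.25). The G1 to S regulators moved both ways, with 5 of 27 risen and 3 fallen (median 1.01), against 9.93% and 8.57% of all genes. The share fallen thus lay near that of all genes. CDK4, the kinase that cyclin D activates, rose by 2.06 ± 0.23 and E2F4, a transcription factor of the E2F family, by 0.88 ± 0.17. The fallen genes were the kinase inhibitors CDKN2D (-2.01 ± 0.30) and CDKN1B (-1.39 ± 0.25) and the pocket protein RBL2 (-1.78 ± 0.33). A further kinase inhibitor of the list, CDKN1A, gave no call (values below). With the block 8 chromatin genes rose, 7 checkpoint genes rose and 1 fell, and 14 G1 to S regulators rose and 6 fell. Of all genes tested, 21.3% rose and 21.2% fell with the block.

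CCND2, a D cyclin, rose by 1.99 ± 0.55 (adjusted p = 0.025). CCNE1, the cyclin that drives S phase entry, had 24.0, 41.8 and 38.7 CPM in ConA cultures, against 3.24, 10.8 and 27.1 CPM in untreated ones, and did not pass (1.35 ± 0.73, adjusted p = 0.23; with the block 1.74, adjusted p = 0.016). CDKN1A, encoding the inhibitor p21, gave -0.17 ± 0.29 (adjusted p = 0.73). E2F1 was not analysed here. Of 18 genes of G2 and M phase 9 rose and 0 fell (median 1.94, 17 with the block), led by the mitotic kinase CDK1 (2.27 ± 0.34) and CCNA2, cyclin A (2.73 ± 0.48). MKI67, the proliferation marker Ki-67, gave 0.90 ± 0.91 (adjusted p = 0.54; with the block 1.45, adjusted p = 0.029).

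Cell type markers differed between the same groups. Summed over a list, monocyte genes stood at 101.2 to 349 CPM in ConA cultures against 432 to 784 CPM in untreated ones, and neutrophil genes at 163 to 337 CPM against 885 to 1016 CPM. T cell genes stood at 699 to 1214 CPM against 1009 to 1722 CPM, with 1 of 9 risen (CD28) and 2 fallen (CD5 and LCK). B cell genes stood at 1421 to 2455 CPM against 1551 to 2631 CPM, NK cell genes at 51.1 to 122 CPM against 68.3 to 163 CPM, red cell genes at 31.8 to 181 CPM against 135 to 278 CPM and platelet genes at 5.12 to 19.4 CPM against 13.4 to 70.5 CPM. With the block 5 of 6 neutrophil, 6 of 7 monocyte, 5 of 7 B cell, 3 of 6 NK cell and 6 of 9 T cell genes fell. Of all genes tested, 21.2% fell with the block. No marker was at 0 in all libraries. Whether these shifts moved the replication genes was not tested.

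In the presence of ALA, ConA again raised the set. Against cultures with ALA alone, cultures with ConA and ALA had 23 of the 45 genes risen and 0 fallen (edgeR's quasi-likelihood test, adjusted p under 0.05), against 5.09% and 3.03% of all genes. None was lower at an unadjusted p under 0.05 either (0 genes), nor called lower by DESeq2 or limma-voom. With the number as a block 36 rose, against 15.8% of all, and 38 were higher at an unadjusted p under 0.05, against 20.1%. The median log2 fold change was 1.10 against -0.07 for all genes, 39 of 45 genes were higher in 3 of 3 numbers, against 28.2% of all, and 31 had groups that did not overlap, against 14.9%. DUT, LIG1 and RFC2, 3 of 45, lay below 0, against 54.1% of all. The count of 23 was 12 without ALA 1, 14 without ALA 2, 15 without ConA+ALA 1 and 14 without ConA+ALA 2; with a whole number left out it was 17 without number 1, 0 without number 2 and 6 without number 3. With the number also fitted as a block, a choice made after seeing the data, the count was 27, 33 and 32 without number 1, 2 and 3. CDT1, MCM2, MCM3, MCM5, MCM6, MCM10, ORC6, PCNA, POLE, RFC4, RRM2 and TYMS passed with each single library left out and in each other setting examined gene by gene, 21 alternatives in all. Without number 2 none of these genes passed in the fit without the block. The other 11 risen genes each missed the threshold without ALA 1 (adjusted p = 0.051 to 0.17), POLD3 and TK1 also without ALA 3, ConA+ALA 1 or ConA+ALA 2, and the remaining 9 also without ALA 2; all but CLSPN missed it without 1 or more of the ConA+ALA libraries as well.

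The helicase and its loaders gave 9 of 12 risen. MCM6 had 331, 301 and 305 CPM with ConA and ALA, against 70.9, 86.6 and 98 CPM with ALA (1.87 ± 0.21, adjusted p = 0.00088). MCM2 had 108, 65.7 and 44.3 CPM with ConA and ALA, against 22.8, 20.4 and 16.3 CPM with ALA (1.87 ± 0.37, adjusted p = 0.01). CDT1 had 64.3, 58.5 and 45.3 CPM with ConA and ALA, against 14.2, 21.9 and 11.6 CPM with ALA (1.82 ± 0.25, adjusted p = 0.0024). The groups of all 3 lay apart, and MCM6 again had the smallest p of the 45 genes. CDC6 had 25.3, 13.9 and 15.1 CPM with ConA and ALA, against 1.37, 0.916 and 4.97 CPM with ALA (2.93 ± 0.75, adjusted p = 0.034), with ALA 3 above the other ALA libraries. GMNN had 29.6, 54.4 and 50.7 CPM with ConA and ALA, against 13.1, 23.4 and 30.5 CPM with ALA (1.01 ± 0.43, adjusted p = 0.19), in groups that overlapped, and passed with the block (adjusted p = 0.00021), as did MCM7 (0.00021) and MCM4 (0.0081).

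CDC45 and GINS2 rose among the helicase partners. CDC45 had 15.5, 10.8 and 11.7 CPM with ConA and ALA, against 1.32, 3.01 and 5.43 CPM with ALA (1.98 ± 0.55, adjusted p = 0.046). GINS1 had 28.4, 20.3 and 25.3 CPM with ConA and ALA, against 16.9, 14.5 and 12.5 CPM with ALA (0.75 ± 0.28, adjusted p = 0.13). GINS1 and GINS4 passed only with the block (adjusted p = 0.037 and 0.034), and GINS3 (0.37 ± 0.58) with neither model. Of the polymerases POLE, POLD3, POLA2 and POLA1 rose, by 1.5 ± 0.26, 1.25 ± 0.30, 0.78 ± 0.22 and 0.74 ± 0.19. POLA1 had 37.2, 32.7 and 26.6 CPM with ConA and ALA, against 21.8, 17.4 and 18.7 CPM with ALA, without overlap. POLE2 had 51.3, 42.3 and 65.1 CPM with ConA and ALA, against 22.2, 19.8 and 45.8 CPM with ALA, in groups that overlapped. POLE2, POLD1 and PRIM2 passed with the block (adjusted p = 0.0026, 0.011 and 0.044).

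PCNA had 129.6, 64.5 and 72.3 CPM with ConA and ALA, against 28.2, 23.9 and 25.5 CPM with ALA (1.78 ± 0.33, adjusted p = 0.0085). RFC4 had 87.7, 82.6 and 82.5 CPM with ConA and ALA, against 21.4, 29.2 and 22.3 CPM with ALA (1.79 ± 0.23, adjusted p = 0.0018). These were the 2 risen genes of the clamp and its loader; RFC3 and RFC5 passed with the block (adjusted p = 0.011 and 0.0024), and RFC1 (0.16 ± 0.23) and RFC2 (-0.04 ± 0.26) did not. RPA1 gave 0.31 ± 0.34 and RPA2 1.04 ± 0.42, the second passing with the block (adjusted p = 0.015). FEN1 (1.23 ± 0.54), UNG (1.02 ± 0.53) and LIG1 (-0.11 ± 0.16) passed with neither model.

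Of the nucleotide genes RRM2 had 68.9, 48.2 and 38 CPM with ConA and ALA, against 3.72, 6.87 and 15.5 CPM with ALA (2.58 ± 0.49, adjusted p = 0.0086), in groups that did not overlap although ALA 3 stood above ALA 1 and ALA 2. TYMS had 107, 93.8 and 126 CPM with ConA and ALA, against 28.6, 40.9 and 47.8 CPM with ALA (1.48 ± 0.22, adjusted p = 0.003). TK1 had 28.1, 21.8 and 16.4 CPM with ConA and ALA, against 5.21, 12.5 and 8.46 CPM with ALA (1.35 ± 0.31, adjusted p = 0.022). RRM1 passed with the block (0.70 ± 0.18, adjusted p = 0.0095), and DUT (-0.27 ± 0.63) with neither model, lying below ALA in 3 of 3 numbers, against 32.2% of all genes. CHAF1A (1.74 ± 0.47), TIPIN (1.74 ± 0.44) and CLSPN (2.45 ± 0.51) rose, CHAF1B passed with the block (adjusted p = 0.017), and DTL did not, with 5.31, 1.57 and 0.551 CPM with ConA and ALA, against 0.372, 0.589 and 0.931 CPM with ALA (2.02 ± 1.01, adjusted p = 0.26). By intron reads 8 of 45 genes rose, against 1.04% of all, or 24 with the block, against 10.6%. None fell by intron reads without the block (0 genes), against 0.477% of all, and with it RFC2 fell by 0.51 (adjusted p = 0.024), against 10.2% of all.

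Of the further lists, nucleotide supply gave 8 of 14 genes risen and 1 fallen with ConA and ALA against ALA, fork and Okazaki fragment factors 4 of 13 risen, G1 to S regulators 4 of 27 risen and 2 fallen, and helicase loading partners 2 of 11, chromatin replication 2 of 11 and the checkpoint 1 of 10 risen. With the block 7 of the fork factors rose and 0 fell, 9 G1 to S regulators rose and 4 fell, 6 chromatin genes rose and 0 fell, 4 checkpoint genes rose and 1 fell, and in nucleotide supply 10 rose and 2 fell. Replication-coupled repair gave 2 of 16 risen, or 12 with the block, and G2 and M phase 0 of 18, or 4 with the block (edgeR's quasi-likelihood test). Of all genes tested, 5.09% rose and 3.03% fell, or 15.8% and 14.3% with the block. Summed monocyte markers stood at 117 to 355 CPM with ConA and ALA, against 327 to 1481 CPM with ALA, neutrophil markers at 902 to 2718 CPM against 991 to 3113 CPM, and T cell markers at 751 to 1197 CPM against 894 to 1301 CPM. Their part in these counts was not tested.

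With ALA added to ConA most of the set lay lower, but no gene passed the test. ConA with ALA against ConA gave 0 of 45 genes risen or fallen in edgeR's quasi-likelihood test, as in 0% of all genes tested, and 0 by DESeq2 and by limma-voom. At an unadjusted p under 0.05, 6 genes lay lower and 0 higher, against 1.35% and 1.98% of all. With the number as a block 0 passed as well, 0.217% of all genes having fallen and 0.337% risen; 21 were lower and 0 higher at an unadjusted p under 0.05, against 4.27% and 5.54% of all. The median log2 fold change was -0.47, against -0.03 over all genes, and 43 of 45 genes lay below 0, against 53.9%. ConA with ALA was below ConA in 3 of 3 numbers for 37 of 45 genes, against 18.1% of all, and the 3 libraries with ALA lay below the 3 without for 17 of 45, against 3.69%, and above them for 0, against 4.05%.

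The smallest p was that of POLA1, with 37.2, 32.7 and 26.6 CPM with ConA and ALA, against 51, 40.4 and 46.5 CPM with ConA (-0.51 ± 0.19, unadjusted p = 0.018, adjusted p = 1.0). TK1 had 28.1, 21.8 and 16.4 CPM with ConA and ALA, against 39.7, 41.3 and 33.4 CPM with ConA (-0.78 ± 0.31, unadjusted p = 0.025, adjusted p = 1.0). TYMS had 107, 93.8 and 126 CPM with ConA and ALA, against 159, 154 and 162 CPM with ConA (-0.54 ± 0.21, unadjusted p = 0.027, adjusted p = 1.0). In these 3 genes no library with ALA reached the lowest ConA library. MCM6 had 331, 301 and 305 CPM with ConA and ALA, against 446, 479 and 417 CPM with ConA (-0.52 ± 0.21, unadjusted p = 0.027, adjusted p = 1.0), again without overlap. POLA1, TK1, TYMS and MCM6 were named as the 4 of smallest unadjusted p. With the block the smallest adjusted p was 0.088, for POLD1 (-0.57 ± 0.14).

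By role, the medians were -0.52 for the helicase and its loaders (12 genes, all below 0), -0.49 for primase and polymerases (7, all below 0), -0.36 for the clamp and its loader (6, all below 0), -0.39 for CDC45 and GINS and -0.54 for nucleotide supply. GINS3 (0.23 ± 0.57) and DUT (0.09 ± 0.63) were the 2 genes above 0. Summed TPM of the 46 genes was 2465, 1407 and 1354 with ConA and ALA, against 3443, 1635 and 1894 with ConA, or 0.716, 0.860 and 0.715 times as much within the numbers. Of exon reads outside mitochondrial genes they took 0.364, 0.264 and 0.237%, against 0.499, 0.345 and 0.349%. In intron reads 41 of 45 genes lay below 0 and 0 passed (edgeR's quasi-likelihood test), against 0.00653% of all fallen; with the block MCM3 fell by 0.69 (adjusted p = 0.033), against 0.196%. The ratio of RRM2 to RRM1 in TPM was 0.827, 1.03 and 0.960 with ConA and ALA, against 0.990, 1.20 and 1.11 with ConA. Neutrophil marker genes summed to 902 to 2718 CPM with ConA and ALA, against 163 to 337 CPM with ConA, and monocyte genes to 117 to 355 CPM against 101.2 to 349 CPM. Platelet genes summed to 20.6 to 101.5 CPM with ConA and ALA, against 5.12 to 19.4 CPM with ConA, red cell genes to 70.1 to 377 CPM against 31.8 to 181 CPM, NK cell genes to 84.5 to 179.6 CPM against 51.1 to 122 CPM, B cell genes to 1803 to 2661 CPM against 1421 to 2455 CPM and T cell genes to 751 to 1197 CPM against 699 to 1214 CPM. The neutrophil and platelet ranges did not overlap. Of 6 neutrophil genes tested 0 passed, or 1 with the block, and their log2 fold changes ran from 0.17 to 4.22 (median 1.01). The neutrophil sum thus does not stand for an equal shift of each gene. Of 2 platelet genes tested 0 passed with either model. The part of these lists in the values was not tested.

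ALA without ConA gave no call. Against untreated cells, 0 of 45 genes passed in edgeR's quasi-likelihood test, as in 0% of all genes, and 0 by DESeq2 and by limma-voom. The median was 0.07, against -0.0001 for all genes, 1 gene was higher and 1 lower at an unadjusted p under 0.05, against 0.801% and 0.359% of all, and 6 were higher and 5 lower in 3 of 3 numbers, against 14.8% and 15.9%. With the block 0 passed, against 0.0449% of all risen, and 1 was lower at an unadjusted p under 0.05, against 2.92%. RRM2 had 3.72, 6.87 and 15.5 CPM with ALA, against 3.38, 3.3 and 4.89 CPM in untreated cells (1.16 ± 0.48, unadjusted p = 0.032, adjusted p = 1.0), in groups that overlapped, ALA 1 lying within the untreated range. CDT1 had 14.2, 21.9 and 11.6 CPM with ALA, against 24.3, 24.1 and 21.1 CPM in untreated cells (-0.54 ± 0.25, unadjusted p = 0.049, adjusted p = 1.0). MCM10 and CDC45, the next by p, gave 0.72 ± 0.38 and 1.06 ± 0.56. Summed TPM was 1032, 929 and 833 with ALA, against 1046, 986 and 866 in untreated cells.

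**Figure D5:**
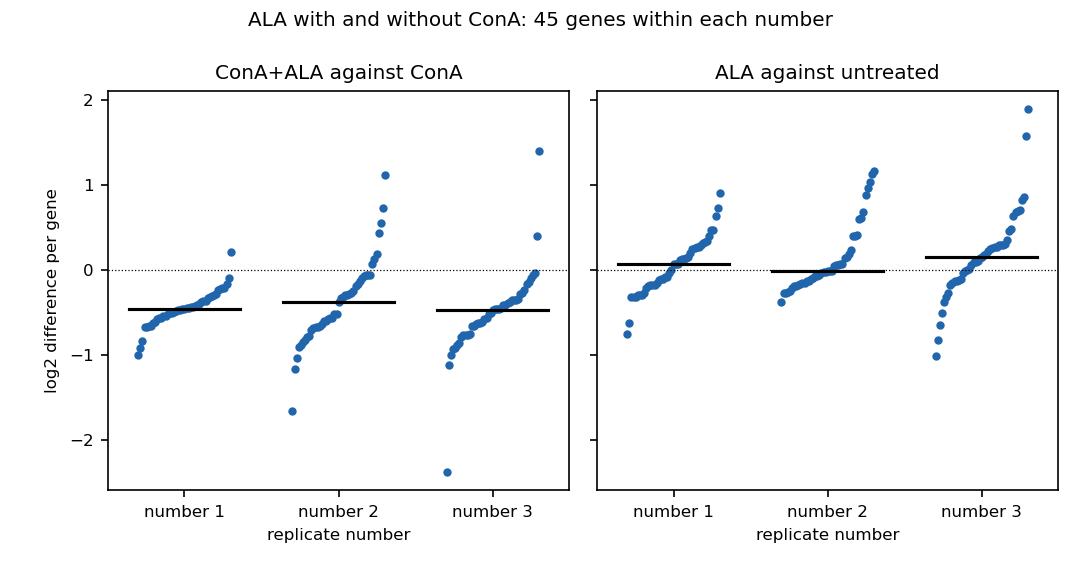
Difference in log2(CPM + 0.5) of each of the 45 tested genes within each replicate number, for ConA with ALA against ConA on the left and ALA against untreated on the right, with genes sorted within a number and the black bar at their median. On the left the bulk of genes lies below 0 in all 3 numbers; on the right the medians lie near 0.

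The test of whether ALA acted differently with ConA than without it, the interaction, passed for 0 of 45 genes and 0% of all (edgeR's quasi-likelihood test), also with the block and by DESeq2 and limma-voom. Its median was -0.54, against -0.02 over all genes, and 41 of 45 genes lay below 0, against 51.7%. At an unadjusted p under 0.05, 5 genes lay below 0, against 0.779% of all, and 15 with the block, against 3.46%. The 4 of smallest p were RRM2 (-1.90 ± 0.66), CDC45 (-2.12 ± 0.77), TK1 (-1.13 ± 0.44) and MCM10 (-1.29 ± 0.52), each with an adjusted p of 1.0. The interaction uses the libraries of ConA with ALA against ConA and of ALA against untreated, so it is not independent of either comparison. Those comparisons share no library with each other, though the same numbers recur in both.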

How the data were processed

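For each of 12 libraries the authors deposited a table of 29822 genes on CanFam3.1. Per the file headers it holds exon and intron read counts, with TPM and RPKM beside them; TPM was used as deposited for levels between genes, and RPKM was not used. The counts are whole numbers as deposited. The build and bcl2fastq are named in the submitters' processing notes; the aligner, counter, settings and use of strand are not given in the sources used. Reads were 75 bp pairs from a NextSeq 500.

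Exon counts were fitted for all 4 groups together with edgeR 4.0.16 (R 4.3.3; TMM scaling, filterByExpr, quasi-likelihood test), and p-values were adjusted by the Benjamini-Hochberg method over the 13358 genes kept, with a threshold of 0.05; intron counts were fitted likewise for 15305 genes. ConA against untreated, ConA with ALA against ALA, ConA with ALA against ConA, ALA against untreated and the interaction were compared. Differences within a number add 0.5 CPM before log2. Summed TPM, ratios and figures were computed with Python 3.11.15, numpy 2.4.6, pandas 2.3.3 and matplotlib 3.10.9. The fit was also run on simulated counts with less spread than these libraries and no link between equal numbers. That run therefore does not test the fit at the spread seen here. Total exon counts of 13390692 to 21517099 per library set the counting precision; for the genes described it is the spread between libraries that limits the tests, with a biological coefficient of variation of 0.422.

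The same replicate numbers recur in each group. Deviations of the 18 same-numbered pairs of libraries from their group means correlated at 0.376 to 0.748, and those of the 36 other pairs at -0.498 to 0.206, so by a limit of 0.1 the numbers pair the samples; the labels do not say what a number is. With the number as a block the coefficient was 0.217. Alternatives were the block, DESeq2 1.42.0, limma-voom (limma 3.58.1), other size factors, other filters on low counts, unique reads, the compared groups alone, and each library and number left out.

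The members and all lists were chosen with earlier results of these data known. All members could be named. Those given in full were MCM6, MCM2, PCNA, RFC4, POLA1, POLE2, GINS1, CDC6, CDC45, CDT1, GMNN, RRM2, TYMS, TK1, RPA3, DTL and each member that did not pass in ConA against untreated, and, for each ALA comparison, the 4 members of smallest unadjusted p. Of each further list the 2 genes of smallest p in each direction were named, with E2F1, CCNE1, CCND2, CDKN1A and MKI67 whatever their result; a few genes under this rule are not reported here; the marker genes and RBL2 were named after their values were seen.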

Additional observations from a re-analysis of the deposited data

Results flagged for a closer look

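For 6 of the 45 genes the difference with ALA lay below 0 in 3 of 3 numbers when ConA was present and above 0 in 3 of 3 when it was absent. This pattern was found in 2.60% of all genes tested, and the reverse in 0 of the 45 and 2.5% of all. The interaction, on the log2 scale, was -2.12 for CDC45, -2.02 for DTL, -1.90 for RRM2, -1.66 for CLSPN, -1.55 for CDC6 and -0.56 for MCM5. In edgeR's quasi-likelihood test none of the 6 passed, each with an adjusted p of 1.0. RRM2, CDC45 and CLSPN had an unadjusted p under 0.05. Without ConA some of the differences were close to none. DTL had 0.9315 CPM in ALA 3 against 0.9307 CPM in untreated 3, and CDC45 had 3.01 CPM in ALA 2 against 2.91 CPM in untreated 2. DTL rested on 9, 9 and 12 exon reads with ALA, against 5, 0 and 16 in untreated libraries. The differences with and without ConA share no library, but the genes were picked out by their direction here.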

How the results depend on the processing

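The count of genes risen with ConA against untreated, 35, was 27 to 35 with 1 library left out, 4 to 29 with 1 number left out (4 without number 2) and 32 to 39 in 12 other alternatives, 39 with the replicate block, with which 21.3% of all genes rose. With the block and 1 number left out, an alternative chosen after seeing the data, it was 33 without number 1, 39 without number 2 and 36 without number 3. The count for ConA with ALA against ALA, 23, was 12 to 25 with 1 library left out and 0 to 17 with 1 number left out (0 without number 2, 6 without number 3). It was 15 in a fit of the compared groups alone, 36 with the block, and 27, 33 and 32 with the block and number 1, 2 or 3 left out. By intron reads the 20 genes risen with ConA were 10 to 20 with 1 library left out and 35 with the block. The counts by exon reads that were 0 in the report were 0 in every alternative run. By intron reads 1 gene fell with the block in each of 3 comparisons where 0 fell without it: RFC2 in ConA against untreated and in ConA with ALA against ALA, and MCM3 in ConA with ALA against ConA. Among single genes, 1532 values kept direction and side of the threshold, 94 lost a call, 33 gained one and 11 changed sign. The sign changed for genes that had no call: GINS3 with ConA against untreated (-0.13 with the block and number 1 left out, -0.44 to 0.79 with a library or number left out) and with ConA and ALA against ALA (-0.0051 to 0.78), RFC2 there (0.0904 with the block and number 2 left out, -0.14 to 0.10), and DUT (-0.58 to 0.16 with ConA against untreated, -0.69 to 0.21 with ConA and ALA against ALA). The cause was not tested. With the block no call of a replication gene changed beyond those given in the report. Low counts limit DTL, CDC6 and ORC1 in cultures without ConA and leave RPA3 untested.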

Other observations

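In some TPM ratios between partner genes number 1 stood apart. CHAF1A stood at 1.28 times CHAF1B in ConA+ALA 1, 1.27 in ConA 1, 0.658 in ALA 1 and 0.690 in untreated 1, against 2.06 to 8.67 in the libraries of numbers 2 and 3. MCM6 stood at 2.76 to 3.70 times MCM2 in number 1 and at 4.63 to 8.16 times in numbers 2 and 3. The libraries of number 1 are those with the lowest share of mitochondrial reads, and the labels do not say what a number stands for.

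The cycle gene MKI67 was highest in number 3 of every group. It had 25.5, 24.2 and 102.3 CPM with ConA and ALA, against 31.5, 34.5 and 62.8 CPM with ConA, and 16.2, 29.3 and 96.0 CPM with ALA, against 10.3, 5.04 and 53.7 CPM in untreated cells. CCNE1, highest in number 3 without ConA, had 4.72, 7.198 and 27.4 CPM with ALA, against 3.24, 10.8 and 27.1 CPM in untreated cells.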
